A study of Mus musculus with 72 samples.

Results

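Fatty acid beta-oxidation genes were followed in the blood of irradiated mice, as 31 genes named by a fixed list and found through the gene names of the array files. Of these 31 genes, 29 were among the 10863 genes that passed the filters and were tested, on arrays that carry 39429 different probes. Each of 72 arrays held the globin-cleared blood RNA of 1 male C57BL/6 mouse, collected by cardiac puncture 1, 3 or 7 days after exposure. On days 1 and 7 the groups were unirradiated controls and mice given neutrons (0.25 Gy or 1 Gy) or x-rays (1 Gy or 4 Gy), and on day 3 they were controls, 0.25 Gy neutrons and 1 Gy x-rays. There were 5 mice in each of 6 groups and 6 mice in each of 7 groups. Levels are log2 intensities relative to the median of the detected probes of the same array, so that 0 is the array's median, and differences are log2 differences from the controls of the same day with their standard error (SE). A gene was called, which here means that it passed the test, at a 2-sided limma p below 0.001 and a false discovery rate (FDR) below 0.05 over all 10863 genes.

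Beta-oxidation shortens fatty acids by cutting acetyl-CoA from the acyl-CoA chain, mainly in the mitochondrial matrix and, for very long and branched chains, in peroxisomes. Long chains enter the matrix through the carnitine shuttle, acyl-CoA dehydrogenases and electron transfer flavoprotein pass the first electrons to the respiratory chain, and a hydratase, a dehydrogenase and a thiolase finish each turn. The pathway is most active in liver, heart and muscle, and mature red cells, which have no mitochondria, do not run it.

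Many of these genes are known targets of PPAR alpha, a nuclear receptor that binds the motif AGGTCA as a direct repeat. The promoter sequences are shown because a shared motif is a feature that the choice of genes did not use. RefSeq promoters of build GRCm38.p6, from 250 bases before to 50 bases after the start site, were found for 27 of the 31 genes. The motif AGGTCA, on either strand, stood in 5 of these 27 promoters (18.5%) and in 16.3% of all 32851 promoters, a similar share. The repeat of the motif after 1 base of any kind stood in 0 of the 27 promoters and in 13 of all promoters (0.0396%). These matches are a description of letters and not of bound sites. The 5 stretches of 30 bases that hold the motif lie at chr3:153944864-153944893 on the minus strand for Acadm, chr11:70015498-70015527 on the minus strand for Acadvl, chr19:3323195-3323224 on the plus strand for Cpt1a, chr7:140116487-140116516 on the minus strand for Echs1 and chr4:108118639-108118668 on the minus strand for Scp2. They are written 5′ to 3′ on the strand of the gene, and the capitals mark AGGTCA or its reverse complement TGACCT.
Acadm: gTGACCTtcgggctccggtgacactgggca
Acadvl: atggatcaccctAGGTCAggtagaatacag
Cpt1a: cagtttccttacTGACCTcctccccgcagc
Echs1: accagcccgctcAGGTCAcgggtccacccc
Scp2: gtctaacacagtAGGTCAaaagaacccata

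The arrays measured blood cells, with 6 to 8 of the 8 red cell precursor markers well above background on every array. Spots well above background made up 40.2 to 50.3% of an array after 1 Gy neutrons at day 7, the lowest median of the 13 groups (45.8%), and up to 67.3% after 4 Gy x-rays on day 7, and dimmer transcripts can be read where this share is high. Transcripts of hepatocytes were also present. Alb, the albumin gene, was well above background on 55 of 72 arrays and saturated on 5. Its level ran from 0.88 to 8.68 in the day 1 controls and from 9.46 to 10.48 in the 5 mice given 4 Gy x-rays at day 1, all of them above every control. In the day 7 controls it ran from -5.86 to -2.81, below every day 1 control, and it was well above background on 2 of these 6 arrays. Without the filter on dim probes, Alb was 4.63 ± 1.30 higher after 4 Gy x-rays at day 1 (adjusted p = 0.0155, not called). Of the 18 hepatocyte markers listed, 17 have a probe, and their mean level in a mouse ran from -1.06 to 6.22 in the day 1 controls, from 7.13 to 8.32 after 4 Gy x-rays at day 1 and from -4.16 to -2.40 in the day 7 controls.

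The members moved beside Alb. The mean level of the 29 tested members in a mouse was 0.67 to 2.14 in the day 1 controls (median 1.19) and 2.69 to 4.13 after 4 Gy x-rays at day 1 (median 3.19). It was 0.47 to 0.82 in the day 7 controls and 0.43 to 0.65 after 1 Gy neutrons at day 7. The highest member mean of all mice, 4.16, belonged to a mouse given 0.25 Gy neutrons at day 1, replicate 5, whose Alb level read 10.75, although the order of the brightest arrays cannot be told where Alb was saturated.

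**Figure D1:**
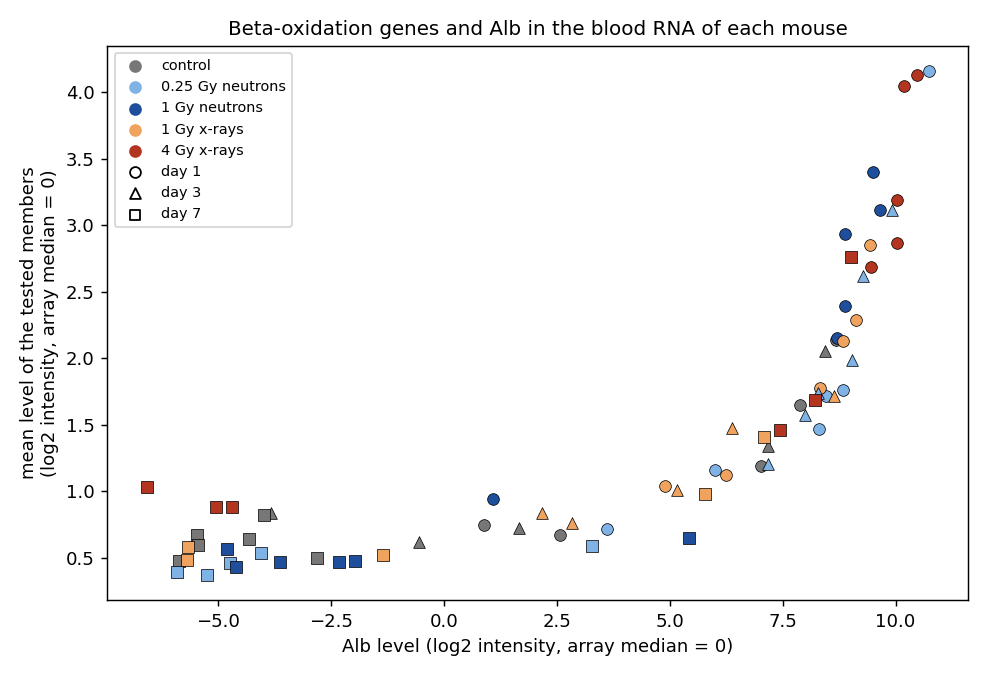
Mean level of the 29 tested beta-oxidation genes against the level of Alb, 1 point a mouse, both as log2 intensity relative to the array median, with groups told apart by colour and shape. The member mean stays nearly flat where Alb is low and climbs at the highest Alb levels, where the 5 mice given 4 Gy x-rays at day 1 sit between 2.69 and 4.13.

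Beta-oxidation genes were higher on day 1 after 4 Gy x-rays. Of 29 members tested, 23 rose and 1 fell, against 35.1% of all genes called in either direction. The median difference of the members was 2.18, and that of all genes was 0.00. In whole blood, a change in the number of cells of a type and a change in RNA per cell cannot be told apart. The hepatocyte markers rose in the same mice, with 4 of the 8 tested called and the largest rise in Itih4 (6.47), while 5 of 8 red cell precursor markers, 7 of 7 tested B cell markers and 4 of 8 T cell markers fell. Of 7 monocyte markers, 2 rose, most of all Fn1 (3.08), and Cx3cr1 fell (-2.13). The median difference of these 7 was -0.05. Only the part of Alb was examined, in the fits with Alb as a covariate, and that of the blood cell types was not tested. The arrays of these mice and of their controls were scanned on different dates, so date and exposure cannot be told apart.

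In the carnitine shuttle, all 3 tested genes rose. Cpt1a makes the acyl-carnitine at the outer mitochondrial membrane and is the controlled step of entry. Its level was 1.25, 1.46, 1.5, 1.58 and 1.74 in the controls and 2.63, 2.69, 2.84, 3.54 and 3.79 after 4 Gy x-rays, a difference of 1.59 ± 0.26 (n = 5 and 5, limma adjusted p = 0.000333). Cpt2, which turns acyl-carnitine back into acyl-CoA inside the matrix, was at 0.75, 0.87, 1.10, 1.64 and 2.15 in the controls and at 3.38, 3.47, 3.49, 4.68 and 4.74 after 4 Gy x-rays. The difference was 2.65 ± 0.37, or 6.28-fold (limma adjusted p = 0.000126). The lowest irradiated mouse was above the highest control for both genes. Slc25a20, the carrier that exchanges carnitine and acyl-carnitine across the inner membrane, rose by 1.57 ± 0.26 (limma adjusted p = 0.000402). Its groups did not overlap either.

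Among the acyl-CoA dehydrogenases, which take the first electrons from chains of different length, 4 of 6 rose. Acad11, for long chains, rose most (3.31 ± 0.48, 9.90-fold). The very-long-chain gene Acadvl (2.49 ± 0.42), the medium-chain gene Acadm (1.94 ± 0.31) and the long-chain gene Acadl (1.67 ± 0.25) rose as well, with every irradiated mouse above every control. The short-chain gene Acads (1.56 ± 0.40) and Acadsb, for short and branched chains (1.39 ± 0.35), were not called, and their groups overlapped. All 3 genes of electron transfer were called, namely the subunits of the flavoprotein, Etfa (1.88 ± 0.38) and Etfb (2.50 ± 0.40), and Etfdh (2.18 ± 0.37), the dehydrogenase that hands the electrons to ubiquinone.

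In the matrix steps that follow, 3 of 4 tested genes rose. Echs1, the short-chain hydratase, was at 1.84, 1.89, 2.36, 2.45 and 2.86 in the controls and at 3.99, 4.44, 4.58, 5.51 and 5.58 after 4 Gy x-rays. The difference was 2.54 ± 0.34, or 5.80-fold (limma adjusted p = 9.91e-05). No irradiated mouse fell into the control range. The dehydrogenase Hadh (2.72 ± 0.39) and the thiolase Acaa2 (2.94 ± 0.50) rose likewise, while Hadha, the alpha subunit of the trifunctional protein, was not called (0.90 ± 0.32) and its groups overlapped. Hadhb, the beta subunit, varied too little to pass the 1.5-fold filter and was not tested. Its level was 0.95 ± 0.26 higher, with all irradiated mice above all controls.

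All 5 isomerases and reductases rose. Eci2, an enoyl-CoA isomerase, had the smallest adjusted p of all members at this dose and day (5.61e-05). Its level was 2.66, 2.70, 3.02, 3.03 and 3.60 in the controls and 4.90, 5.01, 5.48, 6.13 and 6.22 after 4 Gy x-rays, a limma difference of 2.55 ± 0.31. The largest rise of any member was that of Pecr, the peroxisomal trans-enoyl-CoA reductase (4.15 ± 0.76, 17.8-fold), whose controls alone spread from -0.70 to 3.54. A second, dimmer Pecr probe, well above background on 62 arrays, differed by 1.92, so the size of this rise depends on the probe. Decr2 (3.50 ± 0.64) and Decr1 (3.20 ± 0.53), the dienoyl-CoA reductases of peroxisomes and mitochondria, and the isomerase Eci1 (1.71 ± 0.40) completed the set, all with groups that did not overlap.

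In peroxisomes, 4 of 5 genes rose. The bifunctional enzymes Ehhadh (2.94 ± 0.58) and Hsd17b4 (2.14 ± 0.40) and the thiolases Scp2 (2.49 ± 0.45) and Acaa1a (1.68 ± 0.26) were called. Crot, which makes acyl-carnitines for export to mitochondria, was not (2.17 ± 0.56, limma adjusted p = 0.00495), and its groups overlapped.

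The thioesterases, which free fatty acids from CoA, went different ways. Acot1, the cytosolic enzyme, rose by 2.45 ± 0.55 (limma adjusted p = 0.00229), although its lowest irradiated mouse, at -0.46, lay below the highest control, at -0.21. Acot2, the mitochondrial enzyme, was the member that fell. Its level was -2.71, -2.59, -2.30, -2.27 and -2.08 in the controls and -4.01, -3.91, -3.82, -3.77 and -3.75 after 4 Gy x-rays, a difference of -1.46 ± 0.19 (limma adjusted p = 9.43e-05). All irradiated mice were lower than all controls, but with normexp background correction the difference turned to 0.18. Acot8, the peroxisomal enzyme, was not called (-0.26 ± 0.23). Acot1 and Acot2 are close in sequence, and signal of 1 transcript on the probe of the other cannot be told apart here.

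**Figure D2:**
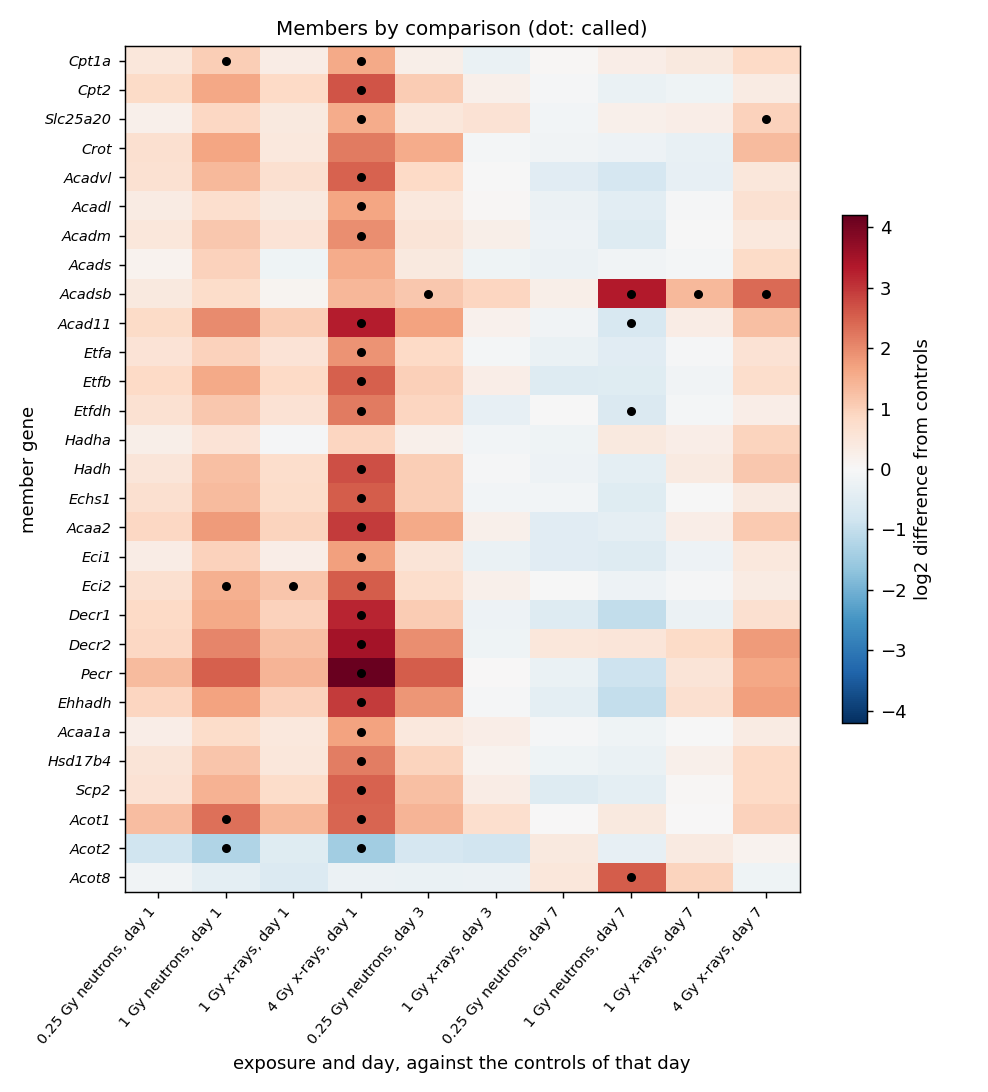
Log2 difference from the controls of the same day (colour) for each member (rows, grouped by role) in each of the 10 comparisons with controls (columns), with a dot where the gene was called. The column for 4 Gy x-rays at day 1 carries 24 dots, and Acadsb carries dots at day 7 after 1 Gy neutrons and after both x-ray doses.

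On day 1 after 1 Gy neutrons, 3 members rose and 1 fell, against 17.5% of all genes called. The median difference was 1.27 for the members and 0.05 for all genes, and 26 of 29 members had an unadjusted p below 0.05. Eci2 ran from 3.59 to 5.04 (median 4.61) in the 6 irradiated mice, a difference of 1.49 ± 0.27 (limma adjusted p = 0.00174). A single irradiated mouse, replicate 4, lay within the Eci2 control range. Acot1 was at -2.78, -2.34, -1.77, -0.42 and -0.21 in the controls and ran from -0.11 to 1.62 (median 0.88) after 1 Gy neutrons, 2.33 ± 0.47 higher (limma adjusted p = 0.00290). Cpt1a ran from 2.06 to 3.11 (median 2.57), 1.05 ± 0.21 higher (limma adjusted p = 0.00307). Acot2 fell by 1.27, to a range of -4.03 to -3.12 (median -3.83; limma difference -1.27 ± 0.22, adjusted p = 0.00141). Acot1, Cpt1a and Acot2 did not overlap with the controls. The call of Acot1 was lost without control replicate 1 (2.12) or 2 (2.26), and that of Cpt1a without control replicate 1 (0.98), 2 (1.03) or 3 (1.04) or neutron replicate 1 (1.01). Cpt1a was also not called under 8 of the 13 other settings, among them quantile normalization (0.92), scan date as a block (1.03) and Alb as a covariate (0.94). All 7 B cell markers and 1 of 8 red cell precursor markers fell in these mice, and their part was not tested.

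Replicate 4 of this group stood apart, with Alb at 1.09 where the other 5 mice were at 8.72 to 9.65, and its member mean of 0.94 was the lowest of the group. Without it, 15 members were called, a count given without the share of all genes and so no result about the members. In a fit to the 4 irradiated and 5 control arrays of a single scan date, 1 member was called, Acot2 (-1.34), with 8.38% of all genes, while Eci2 was at 1.36 and Acot1 at 2.11. No array of an x-ray group shared a scan date with the controls of its day.

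For 1 Gy x-rays at day 1, 1 member rose, against 7.65% of all genes called. This was Eci2, which ran from 3.72 to 4.87 (median 4.05), 1.17 ± 0.24 above the controls with no overlap (limma adjusted p = 0.00788). This call was lost without control replicate 2 (1.08) or 5 (1.09) or x-ray replicate 5 (1.11). It was also lost with normexp background correction (1.14), Alb as a covariate (0.91), or scan date (1.13) or slide (1.20) as a random block. Since no scan date was shared with the controls, the date block cannot separate date from exposure. In these mice 5 of 8 red cell precursor and 5 of 7 B cell markers fell, and their part was not tested. The members had a median of 0.60. After 0.25 Gy neutrons at day 1, limma called 0 members, against 0.00921% of all genes, with 1 member at an unadjusted p below 0.05, and the random variance test also called 0. The median of the members was 0.60 here as well, and in replicate 5, the mouse with Alb at 10.75, Cpt2 was at 4.70 and Echs1 at 5.41 while the other 5 mice stayed at or below 2.01 and 2.90.

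**Figure D3:**
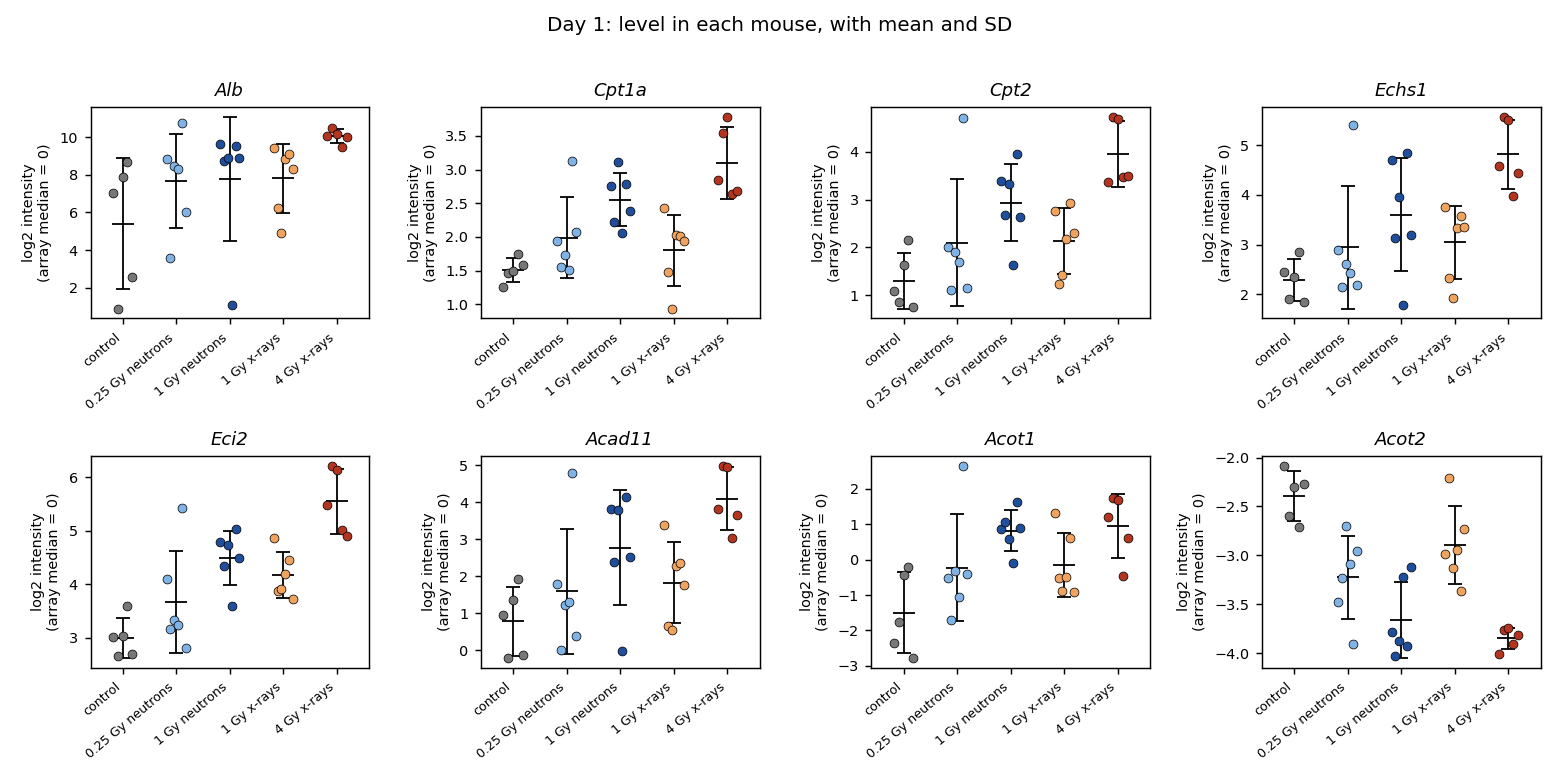
Levels at day 1 of the members described by mouse, in log2 intensity relative to the array median, 1 point a mouse, with the group mean and SD as bar and whiskers. Eci2, Echs1, Cpt2 and Cpt1a are highest after 4 Gy x-rays, and all Acot2 points after 4 Gy x-rays lie between -4.01 and -3.75, below the controls.

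At day 3 after 0.25 Gy neutrons, 1 member rose, against 1.17% of all genes called. Acadsb was at -2.02, -1.96, -1.83, -1.73 and -1.12 in the controls and ran from -1.03 to 0.10 (median -0.65) in the 6 irradiated mice. The difference was 1.14 ± 0.24 (limma adjusted p = 0.0492), and the groups did not overlap. The call was lost under 8 of the 13 other settings and without any of 9 of the 11 mice, with differences of 1.00 to 1.29 over all mice left out. For the members the median was 0.94 and for all genes 0.03, while Alb ran from 7.19 to 9.91 in these mice and from -3.83 to 8.43 in their controls. At day 3 after 1 Gy x-rays, limma called 0 members, against 2% of all genes, with 2 members at an unadjusted p below 0.05 and 0 called by the random variance test. The members had a median of -0.03.

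Mice of 1 group that had more Alb had more transcript of most members. The slope of a gene's level on Alb, fitted over all 72 mice with the group means removed, was called above 0 for 21 of 29 members and below 0 for none of them, against 8.92% of all genes called. Alb was not well above background on 17 of these arrays and was saturated on 5, and its readings there are bounds. Over the other 50 arrays, a choice made after seeing the data, the slope was called above 0 for 20 members (median 0.12), against 5.74% of all genes, and that of Pecr was 0.45 ± 0.04. The median slope over all arrays was 0.09 log2 units per log2 unit of Alb for the members and -0.01 for all genes. Pecr (0.34 ± 0.03), Ehhadh (0.26 ± 0.03) and Decr2 (0.22 ± 0.03) had the steepest slopes. The carnitine shuttle genes Cpt1a (0.03) and Slc25a20 (0.04), the dehydrogenases Acadl (0.03) and Acadsb (0.04), and Hadha (0.05), Acaa1a (0.03), Acot2 (-0.04) and Acot8 (-0.01) were not called. All 8 tested hepatocyte markers had a called slope, the steepest being that of Ahsg (0.86). A squared term of Alb, added after the curve was seen, was called above 0 for 25 of 29 members, against 13.9% of all genes, and for 20 over the 50 arrays that measured Alb, against 7.28%. Over all arrays the members without it were Cpt1a, Slc25a20, Acot2 and Acot8.

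With Alb as a covariate, 3 members were called on day 1 after 4 Gy x-rays in place of 24, and 8.62% of all genes in place of 35.1%. These were Echs1 (1.94 ± 0.45), Eci2 (2.05 ± 0.42) and Acot2 (-1.49 ± 0.31). In this fit the members had a median of 1.49. With Alb and its square, 0 members were called by limma, 1 had an unadjusted p below 0.05, the median of the members was -0.19 and 0.0368% of all genes were called. The SE of a member rose from a median of 0.39 with the groups alone to 0.70 in that fit. Since all 5 mice given 4 Gy x-rays had more Alb than any control, the exposure and the Alb level cannot be told apart in this comparison. On day 1 after 1 Gy neutrons, 4 members were called with Alb as a covariate, against 14.3% of all genes. Among them was Cpt2 (1.22 ± 0.28), in place of Cpt1a. With Alb and its square, 0 members were called, against 2.41% of all genes, and 5 had an unadjusted p below 0.05.

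**Figure D4:**
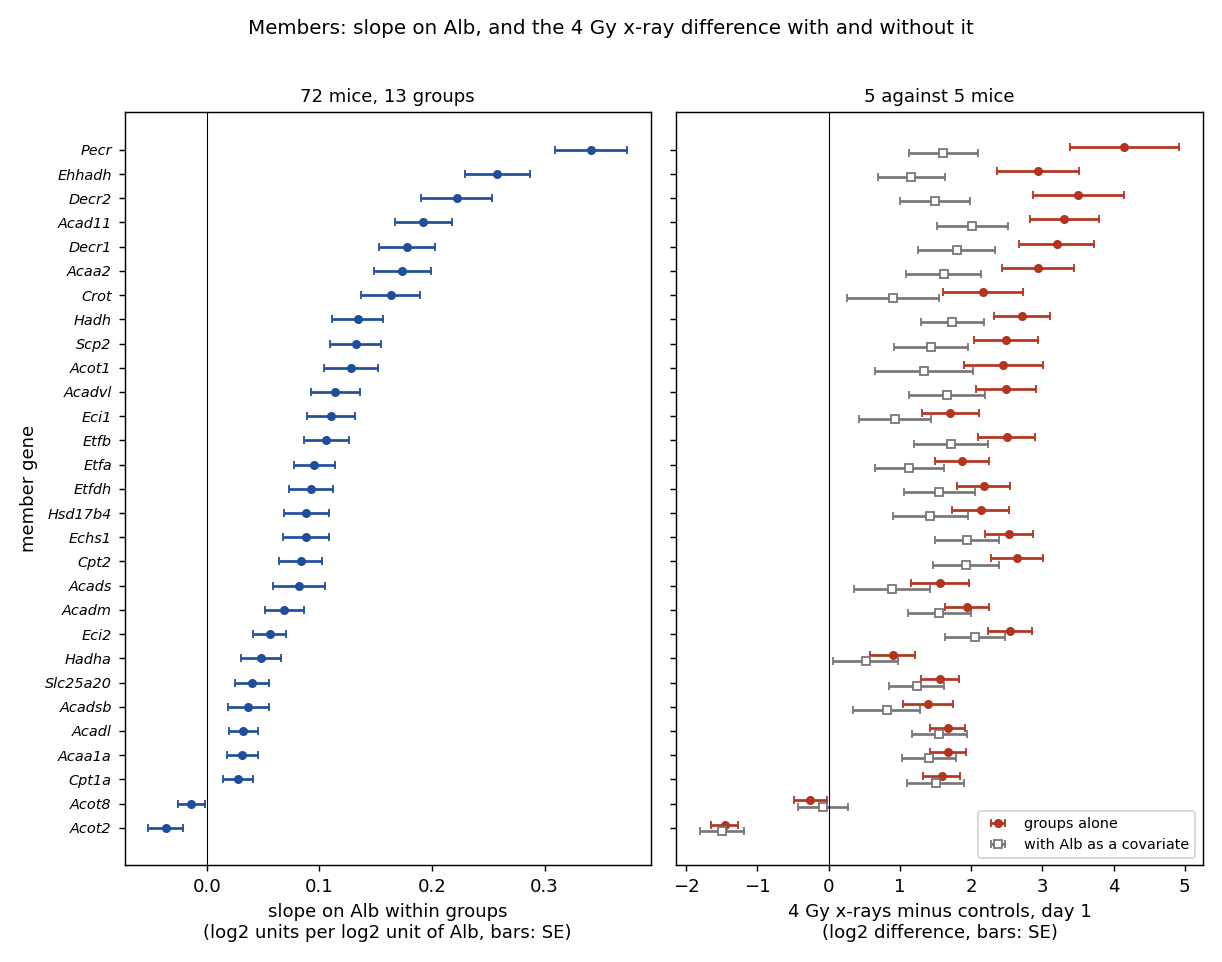
Left, slope of each member on Alb within groups over 72 mice (log2 units per log2 unit of Alb, bars SE), and right, the log2 difference of each member on day 1 after 4 Gy x-rays (5 against 5 mice, bars SE) with the groups alone and with Alb as a covariate. Pecr has the steepest slope (0.34), and its difference goes from 4.15 to 1.61 with the covariate while that of Acot2 goes from -1.46 to -1.49.

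At day 7 the pattern was different, and Acadsb led it. Acadsb encodes the short and branched chain dehydrogenase, which also serves the breakdown of isoleucine. It ran from -1.95 to -1.34 (median -1.79) in the 6 controls and from 0.75 to 2.12 (median 1.84) after 1 Gy neutrons. The difference was 3.33 ± 0.24, or 10.1-fold (limma adjusted p = 5.12e-07). After 4 Gy x-rays Acadsb ran from 0.32 to 1.30 (median 0.63), 2.38 ± 0.20 higher (limma adjusted p = 2.46e-06). After 1 Gy x-rays it was at -0.70, -0.46, -0.35, -0.12 and -0.09, 1.35 ± 0.18 higher (limma adjusted p = 0.00249). The lowest mouse of each of these 3 groups was above the highest control. After 0.25 Gy neutrons it was at -1.92, -1.53, -1.53, -1.20 and -1.08, within or just above the control range, and was not called (0.24). A second Acadsb probe was well above background on 2 arrays only and gives no check.

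These Acadsb calls held with Alb as a covariate. The differences were then 3.37 ± 0.28 for 1 Gy neutrons, 2.22 ± 0.22 for 4 Gy x-rays and 1.52 ± 0.19 for 1 Gy x-rays. However, Alb was well above background on only 2 of 6 control arrays and 2 of 6 arrays at 1 Gy neutrons. With x-rays it was so on 3 of 5 arrays at 1 Gy and 3 of 6 at 4 Gy. Its other readings are bounds, so this fit is a weak check on Alb. The Acadsb call for 1 Gy x-rays was lost with spike-in centring (0.43) and normexp background correction (0.86). Markers of red cell precursors and reticulocytes rose in the same groups, with 8 of 8 called at 1 Gy neutrons, 6 of 8 at 1 Gy x-rays and 5 of 8 at 4 Gy x-rays. B cell markers fell in these groups, 6, 2 and 7 of 7 in that order, and 2 of 8 T cell markers fell after 1 Gy neutrons. The mean of the red cell markers level in a mouse ran from 1.26 to 2.19 in the day 7 controls, from 3.74 to 5.17 in the 1 Gy neutron mice, from 2.57 to 3.62 in the 1 Gy x-ray mice and from 2.68 to 3.80 in the 4 Gy x-ray mice. The part of these cell types in the rise of Acadsb was not tested. On day 1 after 4 Gy x-rays the red cell markers were low, from -1.79 to -0.12.

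At day 7 after 1 Gy neutrons, 2 members rose and 2 fell, against 38.4% of all genes called. The median of the members was -0.36 and that of all genes 0.31, with 22 of 29 tested members below 0. Of the members not tested, Hadhb was 1.00 higher, at 3.40 to 4.73 against 2.92 to 3.28 in the controls. Crat, near the background, was 1.98 higher, and its groups overlapped. Acot8 ran from 1.31 to 2.09 (median 1.69) in the controls and from 3.56 to 5.45 (median 3.99) after 1 Gy neutrons, a difference of 2.54 ± 0.28 with no overlap (limma adjusted p = 7.36e-06). A second, dimmer Acot8 probe, above background on all 72 arrays, differed by -0.26, so that the probes of this gene disagree. The call was lost with normexp background correction (1.09) and spike-in centring (0.48). Acad11 fell by 0.66, from a range of -0.50 to -0.22 (median -0.39) to one of -1.30 to -0.66 (median -1.07; limma difference -0.66 ± 0.15, adjusted p = 0.00176). Etfdh fell by 0.61, from a range of 1.33 to 1.72 (median 1.45) to one of 0.63 to 1.21 (median 0.84; limma difference -0.61 ± 0.15, adjusted p = 0.00257). Neither overlapped with the controls. Both calls were fragile, that of Acad11 being lost when any of 10 of the 12 mice was left out and that of Etfdh when any of 11 was, with differences of -0.73 to -0.60 and -0.68 to -0.56. Acad11 turned to 0.14 with normexp background correction. Acadvl (-0.70 ± 0.18) and Acadm (-0.54 ± 0.15) were also lower in every irradiated mouse than in every control but were not called.

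Acads and Acot2 were above background on 0 of these 6 arrays, Acads in all 6 controls and Acot2 in 5 of them, so that their levels in the irradiated mice are upper bounds and give no fold. With arrays centred on spike-in control spots in place of the array's median, the median of the genes tested in both scalings moved from 0.27 to -1.82 at this dose and day and that of the members from -0.36 to -2.42. In that scaling Acadsb stayed higher, Acot8 was no longer called, and 26 members were called lower, against 72.1% of all genes. In both scalings the members' median lay below that of all genes. Against the controls of the same scan date, the 1 irradiated mouse of that date was 3.02 higher in Acadsb and 2.36 higher in Acot8, values that carry no test since a single mouse has no spread.

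At day 7 after 4 Gy x-rays, 2 members rose, against 17.6% of all genes called. Beside Acadsb this was the carrier Slc25a20, which ran from -2.46 to -1.63 (median -1.90) in the controls and from -1.66 to -0.65 (median -0.93) in the irradiated mice. The difference was 0.97 ± 0.21 (limma adjusted p = 0.00332), and the groups overlapped by a single irradiated mouse. The median of the members was 0.82 and that of all genes -0.04. The irradiated mice fell apart in Alb, with 3 at -6.58 to -4.69 and 3 at 7.45 to 9.01, and their member means spread from 0.88 to 2.76. Slc25a20 was not called with Alb as a covariate (0.72 ± 0.22), nor without control replicate 5 (0.88) or 6 (0.89) or x-ray replicate 1 (0.96), 2 (0.92), 4 (0.93) or 6 (0.89). The arrays of this group and of its controls were scanned on different dates, and the date and the exposure cannot be told apart.

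At day 7 after 1 Gy x-rays, Acadsb was the 1 member called, against 4% of all genes, and the median of the members was 0.01. Acot8 was at 1.93, 2.38, 2.60, 2.71 and 3.43, 0.93 ± 0.25 above the controls, and was not called (limma adjusted p = 0.0405). Its second probe differed by -0.21. At day 7 after 0.25 Gy neutrons, limma called 0 members, against 0.0276% of all genes, with 7 members at an unadjusted p below 0.05 and 0 called by the random variance test. The median of the members was -0.19 and that of all genes 0.06.

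**Figure D5:**
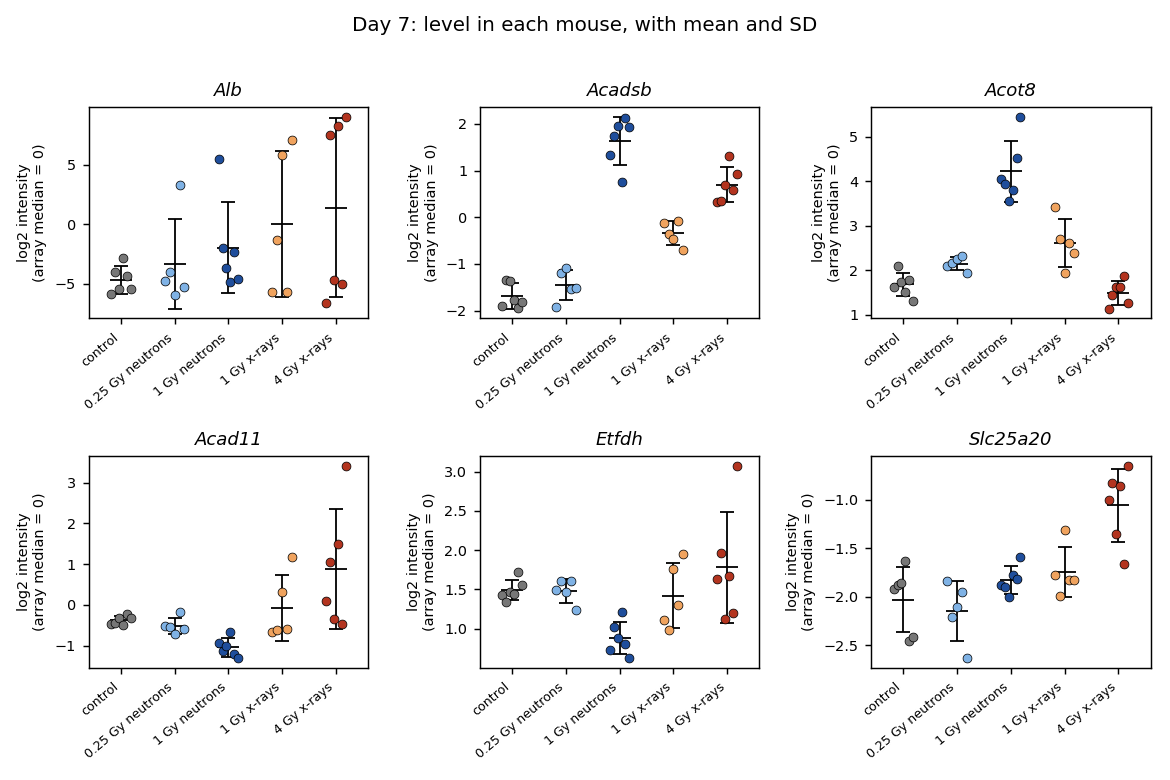
Levels at day 7 of the members described by mouse, in log2 intensity relative to the array median, 1 point a mouse, with the group mean and SD as bar and whiskers. Acadsb is at -1.95 to -1.34 in the controls and above that range in every mouse given 1 Gy neutrons, 1 Gy x-rays or 4 Gy x-rays.

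The doses of 1 Gy neutrons and 4 Gy x-rays were compared directly, since the doses had been set from the relative effectiveness of the neutrons. At day 1, limma called 0 members between them, against 0.0552% of all genes. Members had a median of -0.98, neutrons being lower, 9 members had an unadjusted p below 0.05, and the random variance test called 0. Alb averaged 7.79 in these neutron mice and 10.04 in the x-ray mice. With Alb as a covariate the median of the members was -0.35, and with Alb and its square it was 0.66. Each of these fits called 0 members and 0% of all genes. The sign of the median thus depends on the fit. At day 7, 4 members were lower and 1 was higher after 1 Gy neutrons, against 41.9% of all genes called. Hadh (-1.55 ± 0.28), Etfb (-1.25 ± 0.26), Hsd17b4 (-1.14 ± 0.25) and Acadl (-1.07 ± 0.19) were lower in every neutron mouse than in every x-ray mouse. Acot8 was higher in every neutron mouse, by 2.73 ± 0.28. With Alb as a covariate, 5 members were lower and 1 was higher at day 7, against 40.6% of all genes. With Alb and its square, 0 were lower and 1 was higher, against 11.8%. The median of the members went from -0.99 with the groups alone to -0.28 in that fit. Without replicate 6 of the 4 Gy x-ray group, the mouse with the highest Alb of its group, 10 members were called, and without replicate 5 there were 9. Shares of all genes without these mice are not given, so the 2 counts are no result about the members. The 1 neutron mouse that shared a scan date with the x-ray group was 3.96 above that group in Acot8, with no test.

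Some members changed differently at day 7 than at day 1. The day 7 effect minus the day 1 effect of 1 Gy neutrons was called for 7 members, against 28.7% of all genes. It was above 0 for Acot8 (2.96 ± 0.34) and Acadsb (2.55 ± 0.41) and below 0 for Etfb (-2.12 ± 0.46), Acadvl (-2.05 ± 0.53), Cpt2 (-1.90 ± 0.42), Eci2 (-1.72 ± 0.30) and Acadm (-1.67 ± 0.39). For 4 Gy x-rays it was called below 0 for 5 members, against 22.4% of all genes, with Cpt2 (-2.31 ± 0.46), Eci2 (-2.21 ± 0.34), Echs1 (-2.16 ± 0.43), Etfdh (-1.89 ± 0.47) and Acaa1a (-1.34 ± 0.29). For 1 Gy x-rays it was called for 2 members, against 8.68% of all genes, namely Acot8 (1.51 ± 0.29) and Eci2 (-1.23 ± 0.31). With Alb as a covariate the counts became 17 for 1 Gy neutrons and 15 for 4 Gy x-rays, with 30.6% and 24.9% of all genes. Without replicate 4 of the day 1 neutron mice, 23 members were called for 1 Gy neutrons, and without control replicate 4 of day 1 there were 11. For 4 Gy x-rays, 14 were called without replicate 6 of day 7, 9 without control replicate 4 of day 1 and 8 without replicate 5 of day 1. Shares of all genes with a mouse left out are not given, so these counts are no result about the members. The tests between days share the control groups, which themselves differed in Alb. Between the controls, 1 member was called, against 5.18% of all genes. This was Cpt1a, which ran from 0.56 to 1.15 (median 0.70) at day 7 and was lower than in every day 1 control (-0.76 ± 0.15, limma adjusted p = 0.0158). The count was 0 without control replicate 3 or 5 of day 1 or 1 of day 7, and 2 without replicate 2 of day 1. Markers of cardiomyocytes, which use fatty acids as fuel, had mean levels from -4.41 to 1.72 in the day 7 controls, with 7 to 12 of 12 above background, and from -5.47 to -4.97 in the day 1 controls, with 2 to 6 above background. Their part in the members' levels was not tested.

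A further 39 genes of the pathway that are no members were listed, and 25 of them were tested. After 4 Gy x-rays, 16 rose on day 1 and 1 fell, against 35.1% of all genes called. The largest rise was that of Slc27a2 (4.08), a very long chain acyl-CoA synthetase. The fall was that of Cd36 (-2.14), a fatty acid receptor of monocytes and platelets. On the same day, 2 rose after 1 Gy neutrons, most of all Eci3 (1.60), against 17.5% of all genes. After 1 Gy x-rays Acot3 rose (1.65) and Cd36 fell (-1.77), against 7.65% of all genes. At day 7 after 1 Gy neutrons 4 rose and 3 fell, against 38.4% of all genes. The largest changes were those of Acad10 (2.82), a further acyl-CoA dehydrogenase, and Slc22a5 (-1.11), the carnitine importer. At day 7 after 4 Gy x-rays Acot7 rose (0.92), against 17.6% of all genes. All calls of these genes against controls were made in these 5 comparisons. The slope on Alb was called above 0 for 13 of the 25.

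Crat, the carnitine acetyltransferase, was not detected, since 42.9% of its day 1 and day 7 spots were dim or non-uniform. It was above background in 2 of 5 controls at day 1 and in none of the mice given x-rays at that day. Its readings ran from -5.96 to -3.30 in these controls, from -6.50 to -5.46 after 1 Gy and from -6.12 to -4.87 after 4 Gy. The groups overlapped near the background, so no fold is given, and Crat was not tested. Of all 31 members, 9 have more than 1 probe, and the brightest one was used. The array annotation places the only Acadm probe on chromosome 11, while the gene lies on chromosome 3, and which locus it reads was not tested. No member was saturated on any array.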

How the data were processed

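Blood RNA of 72 mice was labelled with a single dye and hybridized to 1 Agilent array a mouse. The authors extracted the scans with Agilent Feature Extraction 12.0.2, per the labels, and deposited background-corrected intensities with quality flags, not normalized between arrays. They also deposited a table of normalized log2 values. Only 12 of its 72 columns followed the array of the sample they are named for, so 60 columns were not used and the table served as an alternative for 0.25 Gy neutrons at day 1 alone. No p-values were taken from the files.

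Groups came from the labels. Intensities were log2-transformed and centred on the median of each array's detected probes. Following the study's methods, probes flagged on 25% or more of the 56 arrays of days 1 and 7 were left out (19808 remained), a change of at least 1.5-fold on 20% of these arrays was required (12556 remained), and each gene was represented by its brightest probe. Gene names were taken through transcript accessions for 28330 probes, which changed 1403 names. Groups were compared with limma 3.58.1 in R 4.3.3 (lmFit and eBayes), 2-sided, with Benjamini-Hochberg adjustment over 10863 genes, and every adjusted p is limma's. The scripts were tested on simulated data. The number of mice and the share of spots above background limit the precision. The labels do not pair the mice, and p-values measure the spread between these mice.

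The members and lists were chosen with earlier results of these data known. Members were described by mouse where they were among the 4 called with the smallest adjusted p in a comparison with controls. Of other lists, the called genes with the largest rise and fall are named. Pecr, Hadhb, Acadvl and other members outside this rule were named after their values were seen. Alternatives were quantile normalization, spike-in centring, normexp background correction (offset 50), no detection or fold filter, dim spots missing, the mean of a gene's probes, the random variance test of the study's methods, blocks by scan date and replicate number, Alb as a covariate and leaving out each mouse. Slide as a random block, the square of Alb and the fits over arrays that measured Alb were added after seeing the data.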

Additional observations from a re-analysis of the deposited data

Results flagged for a closer look

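Outlying readings were looked for in 156 sets of 5 or 6 mice (Alb and the members described by mouse, in each of 13 groups). The sets hold the same mice read for several genes, so the count cannot be set against chance, about 1 in 20 for independent sets. Dixon's test at its usual level picked out 19 readings far from the others of their group. Replicate 5 of 0.25 Gy neutrons at day 1 accounted for 8 of them, as the highest mouse of its group, with Echs1 at 5.41 (next 2.90), Acad11 at 4.79 (next 1.80), Etfdh at 4.74 (next 2.30), Cpt2 at 4.70 (next 2.01), Cpt1a at 3.13 (next 2.07), Acot1 at 2.65 (next -0.32), Acadsb at 1.04 (next -1.10) and Slc25a20 at 0.67 (next -1.09). Replicate 6 of 4 Gy x-rays at day 7 was the highest of its group in Eci2 (3.89, next 3.23), Echs1 (3.64, next 2.40), Cpt2 (2.71, next 1.23) and Cpt1a (2.45, next 1.57). Alb set apart replicate 4 of 1 Gy neutrons at day 1, the lowest at 1.09 (next 8.72), replicate 4 of 0.25 Gy neutrons at day 7, the highest at 3.29 (next -4.04), and replicate 1 of 1 Gy neutrons at day 7, the highest at 5.43 (next -1.97). Single mice stood out in Cpt1a in a day 7 control, replicate 6 (1.15, next 0.73), in Acot8 in a day 3 control, replicate 1 (1.13, next 1.80), and at day 3 after 1 Gy x-rays in Cpt2 in replicate 4 (1.84, next 1.10) and in Acot2 in replicate 1 (-4.51, next -3.25).

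The change from controls differed between day 7 and day 1, by limma's test of that difference, for 7 members after 1 Gy neutrons, for 2 at 1 Gy x-rays and for 5 at 4 Gy x-rays, against 28.7%, 8.68% and 22.4% of all genes, which is no larger a share among the members. After 1 Gy neutrons the differences were 2.96 for Acot8, 2.55 for Acadsb, -2.12 for Etfb, -2.05 for Acadvl, -1.90 for Cpt2, -1.72 for Eci2 and -1.67 for Acadm. After 1 Gy x-rays they were 1.51 for Acot8 and -1.23 for Eci2. After 4 Gy x-rays they were -2.31 for Cpt2, -2.21 for Eci2, -2.16 for Echs1, -1.89 for Etfdh and -1.34 for Acaa1a. Eci2 was thus lower at day 7 than at day 1, relative to controls, after all 3 exposures, which share the same control groups. The Acot8 values are those of its brighter probe, and its second probe went the other way.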

How the results depend on the processing

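The reference is the count of called members in the report. Examples are 24 on day 1 after 4 Gy x-rays and 21 for the slope on Alb. Each value below is the count under another setting where it moved by more than 1.5 times. The cause was not tested. Percentages in brackets are the share of all genes called in the same fit. A count without the number or share of all genes is no result about the members. With normexp background correction, day 1 gave 0 for 1 Gy neutrons, 0 for 1 Gy x-rays and 15 for 4 Gy x-rays, day 3 gave 0 for 0.25 Gy neutrons, and day 7 gave 2 for 0.25 Gy neutrons, 0 for 1 Gy x-rays and 1 for 4 Gy x-rays. Its shares of all genes were, in that order, 2.35%, 0.0309%, 10.1%, 0%, 1.53%, 0.571% and 2.71%. It also gave 2 for neutrons against 4 Gy x-rays at day 7 (4.47%) and 0 between the controls (0.37%). The difference between days gave 0 for 1 Gy (2.04%) and for 4 Gy x-rays (2.58%). This correction reversed Acot2 after 4 Gy x-rays at day 1 (0.18) and Acad11 after 1 Gy neutrons at day 7 (0.14). With spike-in centring, 1 Gy neutrons gave 2 at day 1, 27 at day 7 and 26 between days, 0.25 Gy neutrons gave 3 at day 3 and 16 at day 7, neutrons against 4 Gy x-rays gave 29 at day 7, 1 Gy x-rays gave 0 at day 7, 4 Gy x-rays gave 1 between days, and the controls gave 0. This scaling moved the median of all genes by more than 0.1 in most comparisons, at day 7 to -1.08 after 0.25 Gy neutrons, -1.82 at 1 Gy neutrons and -0.90 at 1 Gy x-rays, and called 36.7%, 72.1% and 14.5% of all genes there, 74.1% between days for 1 Gy neutrons and 79.9% for neutrons against 4 Gy x-rays at day 7. Spike-in centring called 11.5% of all genes after 1 Gy neutrons at day 1 and 1.92% after 0.25 Gy neutrons at day 3. It called 10.7% between days for 4 Gy x-rays and 3.3% between the controls. Quantile normalization gave 8 for 1 Gy neutrons (36%) and 8 for neutrons against 4 Gy x-rays (40.1%), both at day 7. Between days it gave 1 for 1 Gy x-rays (9.07%) and 3 for 4 Gy x-rays (21.6%). Without the detection filter, 0.25 Gy neutrons at day 3 and the controls gave 0 each.

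With Alb as a covariate, 4 Gy x-rays gave 3 at day 1 (8.62%), 1 at day 7 (11.4%) and 15 between days (24.9%). In that fit 1 Gy x-rays gave 0 at day 1 (5.46%) and 2 at day 7 (4.81%). There were 17 between days for 1 Gy neutrons (30.6%). The comparison of 0.25 Gy neutrons at day 3 and that of the controls gave 0 each (0%). The square of Alb was chosen after seeing the data. With Alb and its square, day 1 gave 0 for 1 Gy neutrons (2.41%) and 0 for 4 Gy x-rays (0.0368%). At day 7, 4 Gy x-rays gave 1 (9.39%), 1 Gy x-rays 2 (4.14%) and neutrons against 4 Gy x-rays 1 (11.8%). There were 2 between days for 4 Gy x-rays (9.72%). The comparison of 0.25 Gy neutrons at day 3 and that of the controls again gave 0 each (0%). Scan date as a block gave 2 for 1 Gy neutrons at day 1, at day 7 and between days. Of all 10863 genes, 1089, 1592 and 1499 were called there. For 1 Gy x-rays it gave 0 at day 1 (3 genes), 2 at day 3 (1506), 2 at day 7 (750) and 1 between days (434). Neutrons against 4 Gy x-rays at day 7 gave 1 (2165 genes), and 0.25 Gy neutrons at day 3 gave 0 (0 genes). This block was random for 1 Gy x-rays and fixed for the others. At day 7 the neutron fits rest on the 1 neutron mouse that shared a date. Slide as a random block was also chosen after seeing the data. It gave 7 for 1 Gy neutrons at day 1 (3354 of all 10863 genes) and 2 at day 7 (3402). Neutrons against 4 Gy x-rays at day 1 gave 8 (1473 genes). For 1 Gy x-rays there were 0 at day 1 (365 genes) and 1 between days (565). After 0.25 Gy neutrons at day 3 there were 0 (0 genes).

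The replicate numbers only name mice. Mice of the same number deviated from their group means with correlations of -0.55 to 0.64, and no comparison had all pairs over 0.1. With the number as a replicate block, 1 Gy neutrons gave 1 at day 1 and 2 at day 7, neutrons against 4 Gy x-rays gave 2 at day 7, and 0.25 Gy neutrons at day 3 and the controls gave 0 each.

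Leaving out each mouse in turn moved the counts between 2 and 15 for 1 Gy neutrons at day 1 (15 without its replicate 4), 2 and 6 at day 7 and 6 and 23 between days (23 without replicate 4 of day 1), between 0 and 2 for 1 Gy x-rays on day 1, 1 and 2 at day 7 and 1 and 2 between days, between 21 and 26 for 4 Gy x-rays at day 1, 1 and 4 at day 7 (4 without its replicate 3 or 5) and 4 and 14 between days (14 without replicate 6 of day 7), between 0 and 2 for 0.25 Gy neutrons at day 3, between 4 and 10 for neutrons against 4 Gy x-rays at day 7 and between 0 and 2 for the controls. The slope on Alb was called for 19 to 21 members and the squared term for 22 to 25. All of these are counts of members, given without the shares of all genes in the same fits. At day 7, Acadsb in the 1 Gy neutron and the 4 Gy x-ray groups was called under every setting fitted and without any mouse. Its difference ran from 1.28 to 3.51 and from 1.60 to 2.62, in that order. The other settings fitted were 13 in the neutron group and 12 in the x-ray group, where scan date as a block was not fitted. That x-ray group shared no scan date with its controls, so date and exposure cannot be told apart there. With 5 or 6 mice a group, and few dim genes measured after 1 Gy neutrons at day 7, smaller changes could not be told from the spread between mice.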
